A study of Oreochromis niloticus with 3 samples.

Results

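The translation initiation factor genes of Nile tilapia (Oreochromis niloticus) were taken from the count table as all loci whose symbol begins with eif and a digit, without the eif2ak kinases. The rule gave 50 of the 29605 loci, of which 43 carried a locus number that was resolved to its symbol and 7 carried a symbol. Symbols came from the RefSeq gene table of the O_niloticus_UMD_NMBU assembly, and a locus whose number has no symbol there could not be found, so the eIF3 subunits c and h, for example, were not analysed here. Of the 50 loci, 3 (eif2c1, eif2c3 and eif2c4) bear an older symbol of the Argonaute genes, which act in small RNA silencing, and the other 47 were taken as the initiation factor loci. Every one of the 50 reached 10 counts in some library, and 43 reached 100.

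The values come from 1 poly(A) RNA library per salinity, each made from the pooled hepatopancreas RNA of 8 healthy juvenile fish kept at 0 psu (freshwater), 8 psu or 16 psu. For the saline groups the water was brought up in daily steps of 4 psu, and the labels give 5 weeks at the final salinity, while the study's methods give a longer period. Fish came from 3 tanks per salinity, ate a commercial diet and were fasted before sampling. Because a salinity is 1 pool, differences have no replicate check: tanks, fish and library preparation cannot be told apart from salinity, and every interval given covers counting error only.

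The libraries held 14627514, 13628578 and 16112951 counts at 0, 8 and 16 psu, and levels in CPM (counts per 1000000 counts) were scaled by the TMM method. A count of 0 allows up to 3 counts, or 0.219, 0.215 and 0.179 CPM in the 3 libraries. The labels name histiocytes as the cell type. Of 5 macrophage symbols 3 were found (marco, csf1ra and cd68), at 32.7 to 44.0 CPM in sum. Loci of hepatocytes and of the exocrine pancreas were also present in all 3 libraries. Their summed level was 27090 to 33280 CPM for 4 hepatocyte loci (from 9 listed symbols) and 7959 to 11180 CPM for 2 pancreatic loci (from 10). Marker loci of other cell types differed between the pools. The summed level of 5 skeletal muscle loci (from 10 listed symbols) was 9.99, 2.86 and 57.3 CPM at 0, 8 and 16 psu. That of 3 enterocyte loci (from 7 listed symbols), most of it apoa4b, was 1255, 191 and 172 CPM, with fabp2 at 23, 0 and 0 counts. The 3 erythrocyte loci lay at 152 to 183 CPM in sum. In pooled tissue RNA fewer cells of a type and less RNA per cell cannot be told apart.

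Translation initiation brings the initiator tRNA, the mRNA and both ribosomal subunits together at a start codon. The factor eIF2 carries the initiator tRNA and is recharged by eIF2B, eIF3 holds the small subunit ready for mRNA, eIF4F binds the mRNA cap and unwinds the leader, and eIF5 and eIF5B complete the joining of the subunits. The liver is an organ of heavy protein secretion, and initiation is known to be controlled in part through phosphorylation of eIF2 and of the eIF4E-binding proteins, which mRNA counts do not measure.

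Most initiation factor loci differed little between the libraries. Over the 3 libraries the highest CPM of a locus was a median of 1.28 times its lowest among the 47 loci, against 1.56 times among all 16573 genes kept and 1.40 times among the 8291 genes with at least 100 counts in a library. For 33 of the 47 loci (70.2%) this ratio stayed under 1.5, against 45.5% of all genes kept and 60.4% of those with at least 100 counts. The steadiest were eif4g2b (1.04 times), eif2b5 (1.04), eif2b3 (1.05) and eif4a1 (1.06). The ratio passed 2 at 5 loci (10.6%), against 28.6% of all genes kept and 14.1% of those with at least 100 counts.

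**Figure D1:**
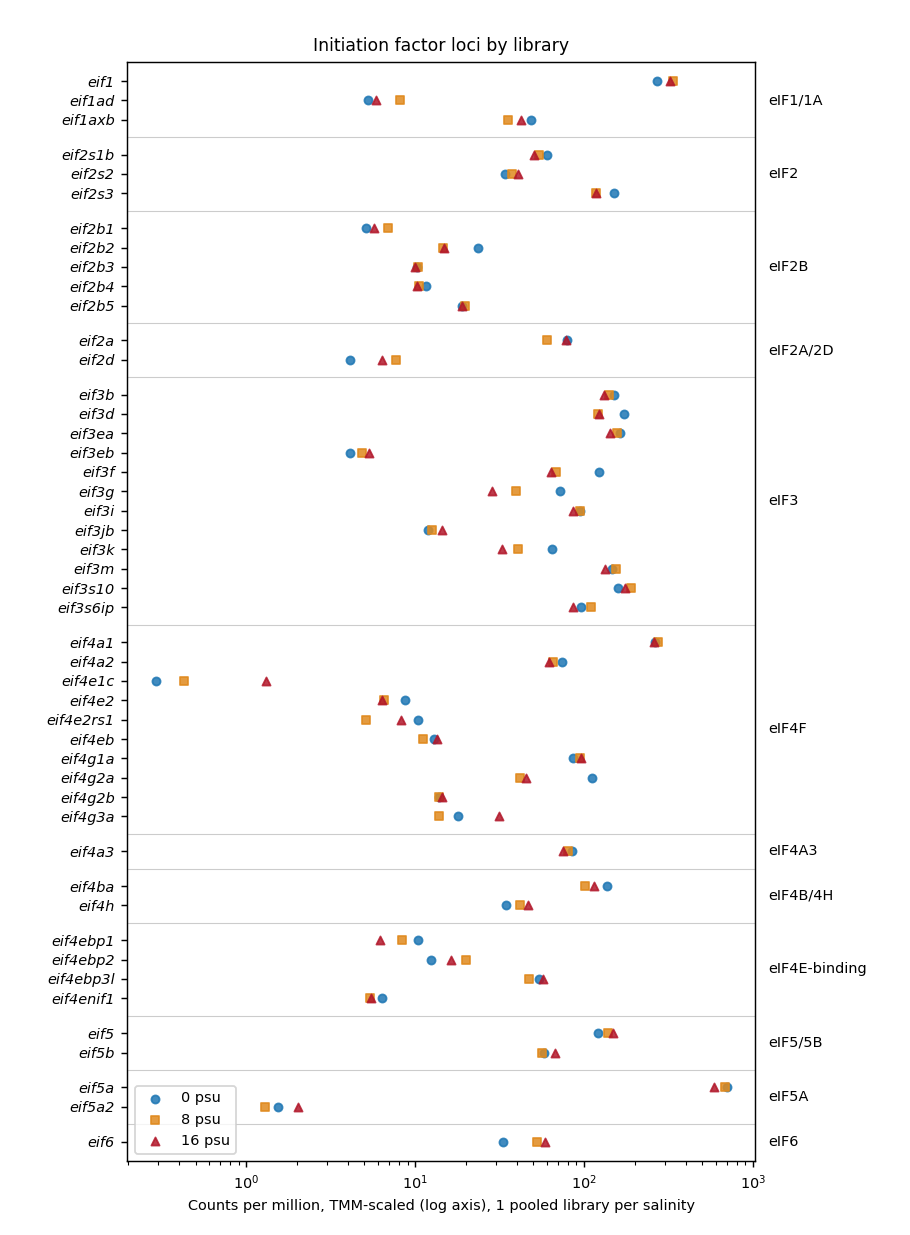
The plot shows the level of each of the 47 initiation factor loci in CPM on a log axis, with a circle for the 0 psu library, a square for 8 psu and a triangle for 16 psu, grouped by factor complex. The 3 symbols of a locus mostly lie close together, and eif4g2a, eif4g3a, eif3g and eif4e1c are among the loci where they spread apart. Levels of different loci also depend on transcript length and should not be compared.

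A difference was called when the fold change on log2(CPM + 0.5) was above 2 or below 0.5 and the Benjamini-Hochberg adjusted p of an exact binomial test on the reads of both libraries was under 0.05. That test compares 2 libraries and not 2 salinities. In the 0 vs 8 psu set 1 of 47 initiation factor loci (2.13%) passed, eif4g2a, which was lower at 8 psu. Of all genes kept 9.84% passed, 4.42% higher and 5.41% lower. In the 0 vs 16 psu set 3 loci (6.38%) passed, eif4g2a and eif3g lower and eif4e1c higher at 16 psu, against a background of 11.1% (5.79% higher and 5.27% lower). In the 8 vs 16 psu set eif4g3a alone passed, higher at 16 psu (2.13% against 5.68%, of which 3.54% higher and 2.14% lower). The adjusted p of the exact binomial test was 1.18e-99 and 5.05e-96 for eif4g2a at 8 and 16 psu against 0 psu, 3.16e-64 for eif3g and 8.20e-03 for eif4e1c at 16 psu against 0 psu, and 2.19e-22 for eif4g3a from 8 to 16 psu. Among genes with at least 100 counts the background was 7.09%, 8.78% and 3.43%, and 1, 2 and 1 of 42 loci passed. The sets share libraries, so that eif4g2a appears in both sets with the 0 psu library.

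With a fold limit of 1.5 in place of 2 the initiation factor loci lay close to the background in the sets with 0 psu. In the 0 vs 8 psu set 10 loci (21.3%) then passed, 4 higher and 6 lower, where 22.1% of all genes did (10.3% and 11.8%). In the 0 vs 16 psu set 9 loci passed (19.1% against 24.9%), 3 higher and 6 lower, with 12.2% and 12.7% of all genes in these directions. The 8 vs 16 psu set gave 3 loci (6.38% against 13%), all higher at 16 psu, as were 6.99% of all genes, and 6.05% were lower. The median log2 fold change of the 47 loci was -0.06, -0.04 and -0.03 in the 3 sets, against 0.00, 0.01 and 0.00 for all genes. The first of these medians turned to 0.07 and the second to 0.10 when total counts replaced TMM, a scaling that moved the median of all genes to 0.12 and 0.14.

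**Figure D2:**
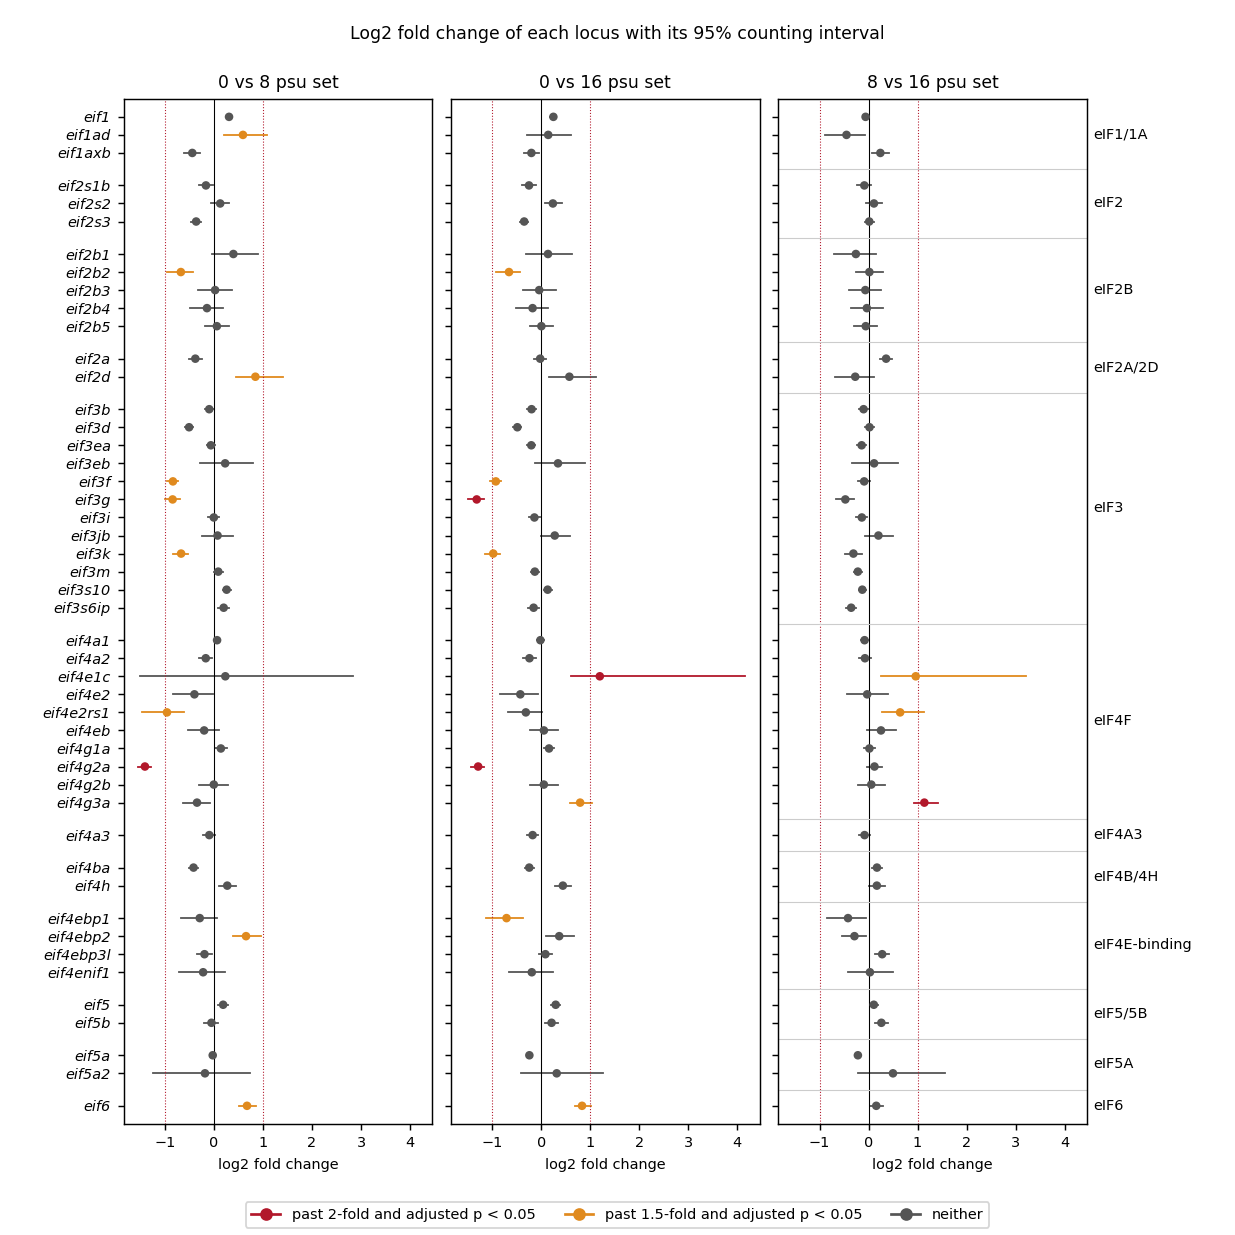
Each point is the log2 fold change of 1 locus in the 0 vs 8, 0 vs 16 or 8 vs 16 psu set, positive where the higher salinity had the higher level, and each line is its 95% counting interval. Red marks loci past a 2-fold change and orange those past 1.5-fold, both with an adjusted p under 0.05, and the dotted lines stand at a 2-fold change. The red points are eif4g2a in the sets with 0 psu, eif3g and eif4e1c in the 0 vs 16 psu set, and eif4g3a in the 8 vs 16 psu set.

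Start codon selection depends on eIF1 and eIF1A, which bind the small subunit and keep it scanning until the initiator tRNA pairs with a start codon. The counts of eif1 were 3713, 4681 and 5390 at 0, 8 and 16 psu, and its level was higher in both saline libraries than at 0 psu, by a log2 fold change of 0.31 at 8 psu (95% counting interval 0.25 to 0.37) and 0.25 at 16 psu (0.19 to 0.31). For eif1axb, an eIF1A locus, counts were 663, 495 and 704, with the lowest level at 8 psu (-0.44 against 0 psu). A locus named for a domain of eIF1A, eif1ad, had 72, 114 and 98 counts and stood just past the 1.5-fold limit at 8 psu (0.59, interval 0.20 to 1.08), with 0.14 at 16 psu. None of the 3 passed the criteria of a 2-fold change in any set.

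Of the eIF2 subunit loci, eif2s2 and eif2s1b had a highest CPM of 1.18 and 1.19 times the lowest, and eif2s3 of 1.29 times. The median of the 47 loci was 1.28. The γ subunit, eif2s3, which binds GTP and the initiator tRNA, had 2066, 1634 and 1982 counts and stood lower in both saline libraries, by -0.36 (interval -0.46 to -0.27) and -0.35 (-0.44 to -0.26). The α subunit, eif2s1b, whose phosphorylation is the switch of the integrated stress response, had 826, 750 and 848 counts and log2 fold changes of -0.16 and -0.25. The β subunit, eif2s2, went the other way, with 468, 521 and 676 counts and values of 0.13 (interval -0.05 to 0.31) and 0.24 (0.07 to 0.41). Within the reads of the complex, a ratio that no library scaling touches, eif2s3 took 61.5% in freshwater (exact Clopper-Pearson interval 59.8 to 63.1), 56.3% at 8 psu (54.4 to 58.1) and 56.5% at 16 psu (54.9 to 58.2). The share of eif2s2 was 13.9%, 17.9% and 19.3%.

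Of the 5 eIF2B subunits, which together exchange GDP for GTP on eIF2, 4 had counting intervals that included 0 in all 3 sets. The exception was eif2b2, the β subunit of the regulatory part, with 324, 204 and 248 counts. Its level was lower by -0.68 at 8 psu (interval -0.95 to -0.44) and -0.66 at 16 psu (-0.92 to -0.43), past the 1.5-fold limit in both sets with 0 psu and 0.02 between 8 and 16 psu. It took 34.1% of the eIF2B reads in freshwater (31.1 to 37.2), 23.6% at 8 psu (20.8 to 26.6) and 24.9% at 16 psu (22.2 to 27.7). The catalytic subunit, eif2b5, had 258, 274 and 316 counts and values of 0.06 and 0.00 against 0 psu. The highest value at 8 psu was that of eif2b1, 0.40, with a wide interval (-0.03 to 0.895) from only 70, 96 and 95 counts, and 0.14 at 16 psu. Counts of eif2b3 were 140, 145 and 166, and those of eif2b4 were 159, 146 and 171, with -0.14 and -0.18 for eif2b4 against 0 psu.

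The proteins eIF2A and eIF2D can deliver tRNA to the ribosome without eIF2. The locus eif2d had 56, 108 and 106 counts, and its level was higher by 0.84 at 8 psu (interval 0.44 to 1.41) and 0.57 at 16 psu (0.15 to 1.12). Only the value at 8 psu was past the 1.5-fold limit. By contrast eif2a had 1082, 845 and 1303 counts, with the 8 psu library lowest (-0.38 against 0 psu, interval -0.51 to -0.25) and a value of -0.02 between 0 and 16 psu.

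The eIF3 loci split into a steady majority and 4 lower subunits. Of 12 loci, eif3g, eif3f, eif3k and eif3d lay between -0.84 and -0.51 at 8 psu and between -1.32 and -0.49 at 16 psu, while the other 8 lay between -0.10 and 0.26 at 8 psu and between -0.20 and 0.34 at 16 psu. Against 0 psu, 7 of 12 loci had a value below 0 at 8 psu and 9 of 12 at 16 psu, with medians of -0.03 and -0.18. From 8 to 16 psu 9 of 12 were also below 0, with a median of -0.13. The level was lowest at 16 psu for 8 of the 12 loci (66.7%), as it was for 31.6% of all genes kept. When total counts set the scale, the median against 0 psu became 0.09 at 8 psu and -0.03 at 16 psu. The counts of loci below 0 depend on the scaling too. With total counts eif3b at 8 psu and eif3i and eif3m at 16 psu changed sign.

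The subunit eif3g, which has an RNA recognition motif and forms a module with eIF3b and eIF3i, had 980, 553 and 476 counts and 71.5, 39.6 and 28.4 CPM. It was highest at 0 psu and lowest at 16 psu, and its log2 values against freshwater were -0.84 at 8 psu (interval -1.0 to -0.70) and -1.32 at 16 psu (-1.49 to -1.17), with -0.47 between 8 and 16 psu (-0.66 to -0.30). Its module partners lay closer to 0. The scaffold subunit eif3b had 2053, 1955 and 2188 counts, with -0.10 at 8 psu, which became 0.031 with total counts as the scale, and -0.20 at 16 psu. For eif3i counts were 1301, 1322 and 1443, with 0.00 at 8 psu and -0.14 at 16 psu, the latter 0.0099 with total counts. Of all eIF3 reads, eif3g took 5.69% in freshwater (5.35 to 6.05), 3.50% at 8 psu (3.22 to 3.79) and 2.79% at 16 psu (2.54 to 3.04), and these intervals do not overlap.

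In the core of eIF3, formed by subunits with PCI or MPN domains, eif3f and eif3k stood apart. Counts of eif3f, an MPN subunit, were 1674, 951 and 1073, with -0.84 at 8 psu (interval -0.96 to -0.73) and -0.93 at 16 psu (-1.04 to -0.82). Those of eif3k, a small peripheral subunit, were 884, 563 and 544, with -0.67 (-0.83 to -0.52) and -0.98 (-1.15 to -0.83). Both were past the 1.5-fold limit in the sets with 0 psu, and their values at 16 psu lay just inside the 2-fold limit. The largest subunit, eIF3a, is encoded here by eif3s10, which had 2180, 2656 and 2919 counts and was higher by 0.26 and 0.13, and its share of eIF3 reads was 12.7%, 16.8% and 17.1%. The eIF3l locus, eif3s6ip, was highest at 8 psu (1314, 1536 and 1441 counts), and eif3m, a PCI subunit, had 2003, 2167 and 2236 counts and values of 0.09 at 8 psu and -0.13 at 16 psu, the latter 0.019 with total counts.

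Outside the core, eif3d, which in human cells can itself bind the cap of some mRNAs, had 2367, 1694 and 2062 counts and was lower by -0.51 at 8 psu (interval -0.60 to -0.42) and -0.49 at 16 psu (-0.57 to -0.40). The loosely bound subunit eif3jb had 163, 175 and 243 counts, and its intervals included 0 in all 3 sets. Of the eIF3e pair eif3ea took most reads (2235, 2179 and 2373), and eif3eb with 56, 68 and 89 counts had 2.44% of the reads of the pair at 0 psu (1.85 to 3.16) and 3.62% at 16 psu (2.91 to 4.43). How reads that match both copies of such a pair were counted is not given in the sources used here, so the split within a pair is uncertain.

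**Figure D3:**
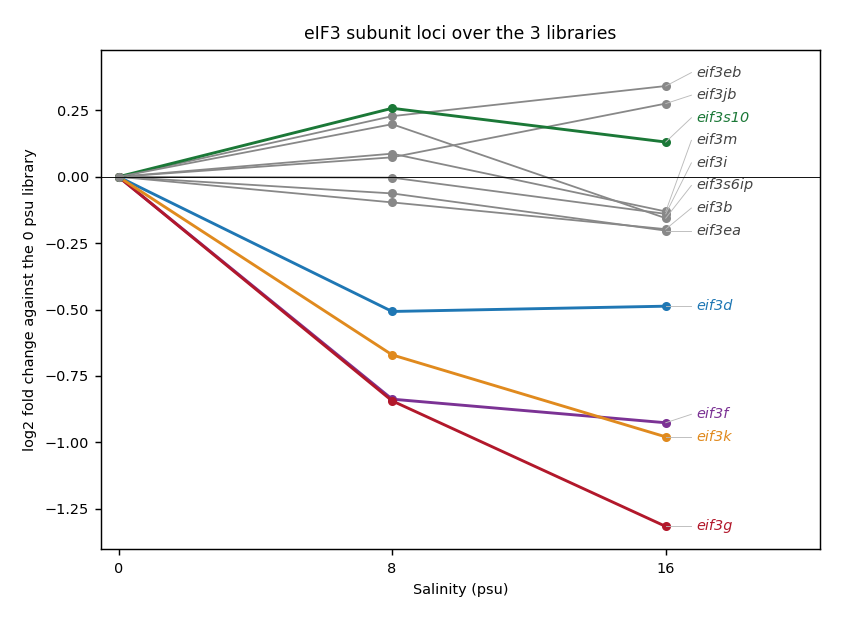
Lines join the log2 fold change of each of the 12 eIF3 loci against the 0 psu library (vertical axis) at 0, 8 and 16 psu (horizontal axis), 1 pooled library per point. The loci eif3g, eif3k, eif3f and eif3d run below the other 8, and eif3g reaches -1.32 at 16 psu.

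Some other loci were also lower in both saline libraries than at 0 psu. The median log2 fold change of the 72 cytosolic ribosomal protein loci was -0.68 at 8 psu and -0.77 at 16 psu. It was -0.12 between 8 and 16 psu, where the 4 lower eIF3 subunits ran from -0.47 (eif3g) to 0.02 (eif3d). Past the criteria, 25 and 29 of the 72 loci were lower at 8 and 16 psu, and 1 was higher in each set. Of all genes kept 5.41% and 5.27% were lower past the criteria in these sets, and 4.42% and 5.79% were higher. This list was added after seeing the data. The summed level of the enterocyte loci, most of it apoa4b (17110, 2673 and 2874 counts), was also lower in both saline libraries. The locus fabp10a, 1 of 4 hepatocyte loci, had 179465, 74983 and 75667 counts. The median log2 fold change of the 4 hepatocyte loci was 0.04 at 8 psu and 0.18 at 16 psu. Counts were 99328, 117945 and 174804 for fga, 81104, 94580 and 113577 for fgg, and 96559, 90904 and 132900 for fgb. The part of any of these in the eIF3 values was not tested.

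The cap-binding complex eIF4F joins eIF4E, which binds the cap, the helicase eIF4A and the scaffold eIF4G. Of the 10 loci of its subunits and their relatives, 4 (40%) spanned more than 2-fold over the libraries: eif4g2a, eif4g3a, eif4e1c and eif4e2rs1. Of all genes kept 28.6% did, and of those with at least 100 counts 14.1%. The locus eif4e1c had only 4, 6 and 22 counts. The helicases were steady, eif4a1 with 3578, 3808 and 4322 counts (0.06 at 8 psu and -0.02 at 16 psu against 0 psu) and eif4a2 with 1009, 914 and 1043 (-0.17 and -0.24). So was the scaffold locus eif4g1a, with 1176, 1321 and 1606 counts and values of 0.14 (interval 0.03 to 0.26) and 0.16 (0.05 to 0.27).

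The locus eif4g2a encodes an eIF4G relative that in mammals (DAP5) lacks the eIF4E-binding region and serves cap-independent or alternative initiation. It had 1531, 583 and 762 counts and 111.6, 41.7 and 45.4 CPM, so that the freshwater library stood far above both others. The log2 fold change was -1.41 at 8 psu (interval -1.56 to -1.28) and -1.29 at 16 psu (-1.42 to -1.17), and 0.12 between 8 and 16 psu (-0.03 to 0.28). Its duplicate eif4g2b was level, with 189, 192 and 240 counts and 0.00 and 0.05 against 0 psu. Of the reads of the pair eif4g2a took 89.0% at 0 psu (87.4 to 90.5), 75.2% at 8 psu (72.0 to 78.2) and 76.1% at 16 psu (73.3 to 78.7). In an edgeR exact test with a coefficient of variation assumed at 0.2 the difference still passed in both sets, and at 0.4 in neither. The summed level of the 3 enterocyte loci, most of it apoa4b, and the median of the ribosomal protein loci were also lower in both saline libraries. Their part was not tested.

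The scaffold eif4g3a, a close relative of eIF4G1, showed another pattern. Its counts were 244, 194 and 523 and its level 17.8, 13.9 and 31.2 CPM, highest at 16 psu, with log2 values of 1.14 between 8 and 16 psu (interval 0.93 to 1.41), 0.79 between 0 and 16 psu (0.59 to 1.04) and -0.35 between 0 and 8 psu (-0.64 to -0.08). At an assumed coefficient of variation of 0.2 it no longer passed in the 8 vs 16 psu set. Among the 4 eIF4G loci it took 7.77% of reads in freshwater, 8.47% at 8 psu and 16.7% at 16 psu (15.4 to 18.1), whereas eif4g2a went from 48.8% to 25.5% and 24.3%. The skeletal muscle loci had the same order of levels over the libraries, at 9.99, 2.86 and 57.3 CPM in sum. All 5 passed the criteria as higher at 16 psu against 0 psu, where 5.79% of all genes kept did. Their part in the eif4g3a value was not tested.

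Cap-binding loci had few reads. For eif4eb counts were 177, 156 and 225, and every interval included 0. The locus of the cap-binding repressor 4EHP, eif4e2, had 120, 91 and 107 counts, with -0.40 and -0.43 against 0 psu. A related locus, eif4e2rs1, had 142, 71 and 138 counts and was lowest at 8 psu, by -0.96 against 0 psu (interval -1.46 to -0.61) and with 0.64 from 8 to 16 psu (0.27 to 1.13), both past the 1.5-fold limit. Between 0 and 16 psu eif4e2rs1 had -0.31 (interval -0.68 to 0.02). The summed level of the muscle loci was also lowest at 8 psu, but it was higher at 16 psu (57.3 CPM) than at 0 psu (9.99 CPM). Their part was not tested. The fish paralog eif4e1c had 4, 6 and 22 counts, which gave 0.96 from 8 to 16 psu and 1.19 from 0 to 16 psu (interval of the read ratio 0.61 to 4.17), and with 2 in place of 0.5 added to the CPM it had 0.53 and did not pass. It is the locus with the fewest reads of the 47.

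Among the cofactors of the helicase, eif4ba, which stimulates unwinding, had 1860, 1417 and 1918 counts and was lower by -0.42 at 8 psu and -0.24 at 16 psu. Its relative eif4h had 470, 579 and 783 counts and was higher by 0.27 (interval 0.10 to 0.45) and 0.44 (0.28 to 0.61). The exon junction helicase eif4a3, which marks spliced mRNA and is no part of eIF4F, had 1169, 1114 and 1264 counts and values of -0.10 and -0.18. None of these was past 1.5-fold.

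The eIF4E-binding proteins keep eIF4E from eIF4G until mTORC1 phosphorylates them. Their loci moved apart rather than together. The counts of eif4ebp1 were 142, 117 and 103, with -0.29 at 8 psu (interval -0.67 to 0.06) and -0.71 at 16 psu (-1.13 to -0.38), the latter past the 1.5-fold limit. Those of eif4ebp2 were 171, 278 and 272, with 0.65 at 8 psu (0.39 to 0.96), past that limit, and 0.37 at 16 psu (0.10 to 0.66). The locus with most reads of the 3, eif4ebp3l, had 740, 658 and 960 counts, lowest at 8 psu (-0.19) and 0.08 at 16 psu. In shares of their summed reads eif4ebp1 took 13.5%, 11.1% and 7.72%, eif4ebp2 16.2%, 26.4% and 20.4%, and eif4ebp3l 70.3%, 62.5% and 71.9%. The eIF4E transporter eif4enif1, which carries eIF4E into the nucleus, had 87, 75 and 92 counts and intervals that included 0.

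**Figure D4:**
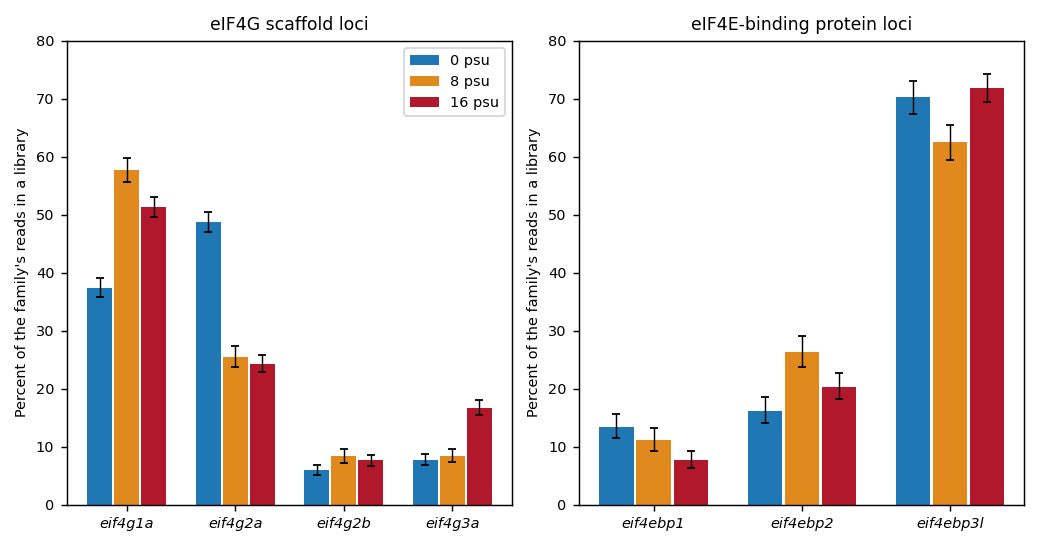
Bars give the share of reads, in percent, that each locus took of its family within 1 library, for the 4 eIF4G loci on the left and the 3 eIF4E-binding protein loci on the right, and error bars are exact 95% binomial intervals for counting error. The share of eif4g2a is 48.8% at 0 psu and near 25% in both saline libraries, that of eif4g3a is highest at 16 psu, and that of eif4ebp2 is highest at 8 psu.

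At the last steps eif5, which triggers GTP hydrolysis on eIF2, had 1659, 1924 and 2490 counts and was higher by 0.19 at 8 psu (interval 0.09 to 0.28) and 0.29 at 16 psu (0.21 to 0.39). The joining factor eif5b had 795, 781 and 1126 counts, with -0.05 and 0.21. The locus with the most reads of all, eif5a, encodes the hypusine-carrying protein that acts mainly in elongation. Its counts were 9572, 9577 and 9891, level between 0 and 8 psu (-0.03, interval -0.07 to 0.02) and lower at 16 psu by -0.24 (-0.28 to -0.20). Its relative eif5a2 had 21, 18 and 34 counts, too few to show a difference of this size.

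The factor eIF6 keeps the large ribosomal subunit from joining too early and takes part in its assembly. Its locus was higher in both saline libraries. The counts of eif6 were 451, 737 and 988 and its level 32.9, 52.8 and 58.9 CPM. The log2 fold change was 0.67 at 8 psu (interval 0.51 to 0.85), 0.83 at 16 psu (0.68 to 1.01) and 0.16 between 8 and 16 psu (0.02 to 0.30), past the 1.5-fold limit in both sets with 0 psu and short of the 2-fold limit. Its direction against 0 psu was the same under all 3 other scalings. The summed level of the 2 exocrine pancreas loci was also higher in both saline libraries, at 7959, 11180 and 10960 CPM, though neither locus passed the criteria, and their part in the eif6 value was not tested.

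Levels were also summed over the loci of each complex. The eIF3 loci gave 1255, 1133 and 1019 CPM at 0, 8 and 16 psu, the eIF2 loci 245, 208 and 209 CPM, and the eIF5 and eIF5B loci 179, 194 and 216 CPM. The 10 loci of eIF4F and its relatives gave 596, 525 and 536 CPM, and without eif4g2a the other 9 gave 484, 484 and 491 CPM. The 6 loci left without the eIF4G2 and eIF4E2 relatives gave 451, 458 and 462 CPM. All 47 loci together took 0.358%, 0.370% and 0.361% of the counts of a library, a share of total counts without TMM scaling. Their summed counts were 52414, 50443 and 58099, and the library sizes after TMM scaling were 13715183, 13967430 and 16767876. On that scale, used for the sums above, the 47 loci together were highest at 0 psu and lowest at 16 psu. Counted by library, 22 of the 47 loci had their highest level in freshwater, 11 at 8 psu and 14 at 16 psu (46.8%, 23.4% and 29.8%, against 37.1%, 30.7% and 32.3% of all genes kept).

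Beside the factors stand the genes that control them and the later steps of translation, 35 of 39 listed symbols with 40 loci. Of these 40 loci, 1 was higher and 1 lower past the criteria in the 0 vs 8 psu set, none passed from 0 to 16 psu and 1 was higher from 8 to 16 psu, where 9.84%, 11.1% and 5.68% of all genes did. The kinase eif2ak2, the double-stranded RNA sensor PKR that phosphorylates eIF2α, had 20, 53 and 53 counts (1.13 at 8 psu, interval 0.61 to 2.20, and 0.90 at 16 psu). The other 3 eIF2α kinases lay between -0.28 and 0.28 in all sets. The mTORC1 activator rheb had 18, 4 and 21 counts and was lowest at 8 psu. Its values were -1.20 against 0 psu (interval -4.22 to -0.59) and 1.16 from 8 to 16 psu (0.56 to 4.13). The 4 counts at 8 psu lie close to the 3 that a count of 0 allows.

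Past the 1.5-fold limit alone were further control genes. The kinase eef2k, which slows elongation, had 1029, 558 and 1128 counts, lower at 8 psu by -0.90 (interval -1.06 to -0.76) and with 0.74 from 8 to 16 psu. The mTORC1 inhibitor tsc1a had 507, 842 and 1101 counts and was higher by 0.70 and 0.82 in the saline libraries. The S6 kinase locus rps6kb1b had 286, 180 and 209 counts (-0.67 and -0.72), and the termination factor gspt1 had 2714, 1632 and 1954 counts (-0.76 in both sets with 0 psu). The loci eef1e1 (146, 82 and 129 counts) and eef1db (216, 160 and 143 counts) were lower past this limit at 8 and at 16 psu, respectively. The reinitiation factor denr had 130, 93 and 179 counts and was higher by 0.64 from 8 to 16 psu. The median of the 40 loci was -0.09, -0.06 and 0.05 in the 3 sets.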

How the data were processed

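Per the study's methods, Ion Proton reads were filtered (FAST-QC) and aligned by MapSplice, with Orenil1.1 as the genome and the longest transcript standing for a gene. The submitters' processing notes name HTSeq. The authors deposited raw counts of reads per gene, 1 column per salinity. Strand and multi-mapping settings are not given in the sources used here.

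Genes with at least 10 counts in 1 library were kept. Scaling was by TMM (edgeR 4.0.16, R 4.3.3), computed over 3 libraries. Fold changes, two-sided exact binomial tests adjusted over all genes kept, and exact 95% intervals were computed in Python 3.11.15 with scipy 1.17.1, and tested on simulated data. The simulated counts held counting error only, which the test assumes, so that check says nothing about variation between fish, tanks or libraries. Reads without molecular identifiers are not independent molecules. The intervals are of the read ratio, without the added 0.5. EB-Seq, used by the authors, was not run, and no quasi-likelihood fit is possible with 1 library per salinity.

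Members and lists were chosen with earlier results of these data known. Loci are named when past 1.5-fold in a set, among the 5 with the most counts, or at the ends of their complex, and the others to account for every member. The ribosomal protein and macrophage lists were added after seeing the data. Alternatives were DESeq2 1.42.0 size factors, total counts and the upper quartile as scaling, other count minimums, 2 added to CPM, other fold limits, and edgeR exact tests with an assumed coefficient of variation.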

Additional observations from a re-analysis of the deposited data

How the results depend on the processing

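The numbers of initiation factor loci past the criteria were 1 from 0 to 8 psu, 3 from 0 to 16 psu and 1 from 8 to 16 psu. Later counts follow that order. They were within 1.5 times of this under the 3 other scalings, both other count minimums, 2 added to the CPM, the fold limit without the test and the inclusion of the 3 eif2c loci, which was chosen after seeing the data. A fold limit of 1.5 gave 10, 9 and 3 loci. The edgeR exact test gave 1, 2 and 0 with an assumed coefficient of variation of 0.2, and 0, 0 and 0 with one of 0.4. For all genes that test left 478, 818 and 257 at 0.2 and 38, 96 and 55 at 0.4, in place of 1630, 1834 and 941, and a fold limit of 1.5 gave 3664, 4125 and 2161. A minimum of 100 counts left 585, 731 and 290 genes past the criteria, and 2 added to the CPM left 543, 734 and 282. With total counts the split of all genes past the criteria went from 733 higher and 897 lower to 992 and 704 in the 0 vs 8 psu set, and from 960 and 874 to 1244 and 666 in the 0 vs 16 psu set. Among the 47 loci 3 values whose interval excluded 0 changed sign, all with total counts: eif3b from -0.10 to 0.031 from 0 to 8 psu, and eif3i from -0.14 to 0.0099 and eif3m from -0.13 to 0.019 from 0 to 16 psu. No paired analysis was possible because each salinity has 1 library, and for the same reason no library could be left out. Depth limits the loci with few reads most. From 0 to 8 psu the interval of eif5a2 ran from -1.24 to 0.73, which includes a 2-fold decrease. That of eif4e1c ran from -1.52 to 2.83 in the same set, which includes a 2-fold difference in either direction.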

Other observations

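Of the 3 loci with the older Argonaute symbols none passed the 2-fold criteria. Counts of eif2c1 were 53, 72 and 67 at 0, 8 and 16 psu, and those of eif2c3 were 139, 158 and 179, with intervals that included 0 in all 3 sets. The locus eif2c4 had 51, 56 and 36 counts and was lower at 16 psu, by a log2 fold change of -0.67 against 0 psu (95% counting interval -1.45 to -0.15) and -0.77 against 8 psu (-1.55 to -0.27), past the 1.5-fold limit in both sets and not past the 2-fold limit.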
